A study of Mus musculus with 6 samples.

Results

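This section describes the nuclear genes for the protein subunits of oxidative phosphorylation, the machinery of the inner mitochondrial membrane that turns the oxidation of NADH and succinate into ATP. Members were the rows of the deposited expression table whose mouse symbol marks a subunit of complex I (Nduf), II (Sdh), III (Uqcr and Cyc1), IV (Cox4 to Cox8) or V (Atp5). Of the 54532 genes in the table, 100 matched these names, 10 were dropped (Ndufa4l2 and 9 with names of pseudogenes), and 90 were kept. They comprised 39 genes of complex I, 4 of complex II, 9 of complex III, 20 of complex IV and 18 of complex V. By annotation, 86 of them were protein coding. Ndufa11b, Ndufb4c, Ndufs6b and Cox6c2, none of which was tested, were annotated as processed pseudogenes. Ndufa4 was counted in complex IV, where its protein is now placed, in spite of its name. Cox7a2l, a factor that joins complexes into larger assemblies, and Atp5s, an ATP synthase factor, carry matching names without being classical subunits.

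RNA was sequenced from CD11c-sorted cells of mouse melanomas, named dendritic cells in the labels, a cell type that presents antigen to T cells. Both groups of tumours grew from BRAFV600EPTEN-/- melanoma cells placed with matrigel in C57BL/6 mice, with harvest at day 28. The Gli2CA cells carried an active mutant of Gli2, a transcription factor of the Hedgehog pathway (3 libraries), and the NTC cells a non-targeted control (3 libraries), both cultured in puromycin before implantation. The altered gene was therefore in the tumour cells and not in the sorted cells. Whether each library is a mouse of its own is not stated, and p-values cover just the spread among these samples, which may be technical. The labels used here do not state host age or sex, or whether the lines are single clones.

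Complex I takes electrons from NADH and complex II from succinate, and both pass them through ubiquinone to complex III, which hands them to cytochrome c and on to complex IV, where oxygen is reduced. Complexes I, III and IV pump protons, and complex V, the ATP synthase, uses the return flow to make ATP. Most subunits are encoded in the nucleus, and a few, in every complex but complex II, by mitochondrial DNA. Myeloid cells are known to shift between this pathway and glycolysis on activation or in low oxygen, and many of the nuclear subunit genes share promoter sites for the factors NRF1, GABPA (an ETS protein) and YY1.

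The promoter stretches of 3 members are shown because these genes are among those described below and hold these shared sites. Sequences are from RefSeq on GRCm38.p6, 5′ to 3′ on the gene's strand, and run over the 150 bases that end just before the annotated start, with matches in capitals. The NRF1 match, on the opposite strand, stands in Ndufs6, the ETS match in Uqcr11, and a YY1 match followed by an ETS match in Atp5j. Atp5j has another annotated start, not shown (stretch at chr16:84835626-84835775), whose window holds no match.
Ndufs6, chr13:73328483-73328632, minus strand: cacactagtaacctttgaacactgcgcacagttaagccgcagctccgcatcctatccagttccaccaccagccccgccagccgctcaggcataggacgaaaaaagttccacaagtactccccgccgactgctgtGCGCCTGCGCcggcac
Uqcr11, chr10:80406822-80406971, minus strand: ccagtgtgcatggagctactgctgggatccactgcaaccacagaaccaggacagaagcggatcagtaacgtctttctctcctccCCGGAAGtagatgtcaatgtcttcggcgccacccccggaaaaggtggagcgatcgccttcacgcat
Atp5j, chr16:84834977-84835126, minus strand: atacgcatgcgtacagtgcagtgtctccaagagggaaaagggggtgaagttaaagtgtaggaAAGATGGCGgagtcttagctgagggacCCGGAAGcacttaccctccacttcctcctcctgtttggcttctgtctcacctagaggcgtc

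The searched letters were GCGCA and GCGC with any single base between them (NRF1), CCGGAAG (ETS) and AAGATGGCG (YY1), on both strands from 250 bases before to 50 after each start. Of the 89 member symbols, 67 had at least 1 window in the RefSeq table, giving 72 windows. The NRF1 letters stood in 18 of them, against 9.84% of windows of all genes tested and 4.60% of all promoters, which are windows of the same length. For ETS the shares were 22.2% in members, 18.2% in genes tested and 8.86% in all promoters. For YY1 they were 9.72%, 3.15% and 1.40%. A match is a run of letters and not a shown binding site. At least 1 of the 3 stood in 35 of the 72 member windows. Tested members with and without such a match had almost the same median log2 difference between the groups, -0.21 in the 34 with one and -0.22 in the 31 without.

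The deposited values were FPKM, fragments scaled by transcript length and by the mapped fragments of the library. Library totals worked out from the value of 1 fragment were near 25490000 to 29130000 in the Gli2CA libraries and 18780000 to 27880000 in the NTC libraries. NTC 1 and NTC 3 stood apart, with 11374 and 11871 genes above 0, against 14253 to 15496 in the Gli2CA libraries and 14364 in NTC 2. NTC 2 also correlated more closely with the Gli2CA libraries (Pearson r of 0.819 to 0.833 over 12266 genes) than with NTC 1 (0.730) or NTC 3 (0.775). Genes are not independent replicates in such a correlation. For some members and medians, values that rest on NTC 1 and NTC 3 are therefore also given without them. The differences and medians of the gene lists outside the members are given with all 6 libraries only.

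Of the dendritic cell markers listed, none was at 0 in every library, and H2-Ab1, an MHC class II chain, stood at 26996 to 33248 FPKM in Gli2CA and 31696 to 42699 in NTC. Xcr1 and the 7 other markers of type 1 dendritic cells all had the lower mean in Gli2CA (summed level 707 to 807 FPKM, against 1124 to 2047 in NTC), and 6 of 8 did not overlap (5.79% of all genes tested lay lower in this way). The 6 dendritic cell core markers were 1 higher and 5 lower (43421 to 52274 against 52848 to 67080 FPKM). All 6 monocyte markers had the higher mean in Gli2CA (2211 to 2800 against 607 to 985 FPKM), and 6 of 9 macrophage markers did (6013 to 10634 against 6481 to 9090). T cell markers were 1 higher and 5 lower (558 to 847 against 929 to 1745 FPKM), and of 3 B cell markers tested 2 were higher and 1 lower (118 to 206 against 463 to 680, mostly Ighm). Neutrophil markers summed to 11.7 to 244 FPKM in Gli2CA and 43.1 to 76.8 in NTC, with Ly6g and Retnlg at 0 throughout. Melanoma markers summed to 18.02 to 24.1 FPKM in Gli2CA and 0 to 1.34 in NTC. Mlana, Tyr, Tyrp1 and Dct were listed at 0 in all 6 libraries, and Sox10 was listed at 12.1 to 19.8 FPKM in Gli2CA and at 0 in NTC. The part of these cell types in the results below was not tested. In sorted bulk RNA, fewer cells of a type and less RNA per cell cannot be told apart.

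The subunit genes stood at similar levels in the groups, with most of them slightly lower in Gli2CA, and no gene passed the test. With limma on log2(FPKM + 1) over the 12266 genes averaging 1 FPKM or more, 82 of the 90 members were tested, 0 had an adjusted p under 0.05, and the smallest was 0.269. Over all genes tested the share called was likewise 0%. At an unadjusted p under 0.05, 4 members were lower in Gli2CA (Cyc1, Uqcrc2, Ndufs6 and Ndufa9) and 1 was higher (Cox4i2), against 2.81% and 7.82% of all genes tested. The 4 became 2 without Gli2CA 1, 1 without Gli2CA 2, 2 without NTC 1, 15 without NTC 2 and 2 without NTC 3, where the shares of all genes were 1.46%, 1.49%, 3.51%, 4.17% and 2.53%. They became 0 with untrended variances (1.81% of all genes) and 7 with no filter on low values (2.08%). By limma's voom on recovered fragments, 0 members passed and 3 were lower at an unadjusted p under 0.05.

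In all, 60 of the 82 members had a log2 difference below 0 (Gli2CA minus NTC), against 40.3% of all genes tested. The median was -0.18 for members and 0.25 for all genes tested. Among genes with a mean of 20 FPKM or more, which hold 76 of the members, the median was -0.22 for members and 0.01 for all 4843 genes, and 59 of the 76 were below 0, against 49.1% of these genes. Without both NTC 1 and NTC 3, which leaves NTC 2 as the only control library, 43 of 81 members were below 0, the members' median was -0.01 and that of all genes was -0.10. Without NTC 1 alone, 50 of 82 members were below 0, against 46.5% of all genes, and the members' median was -0.10.

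**Figure D1:**
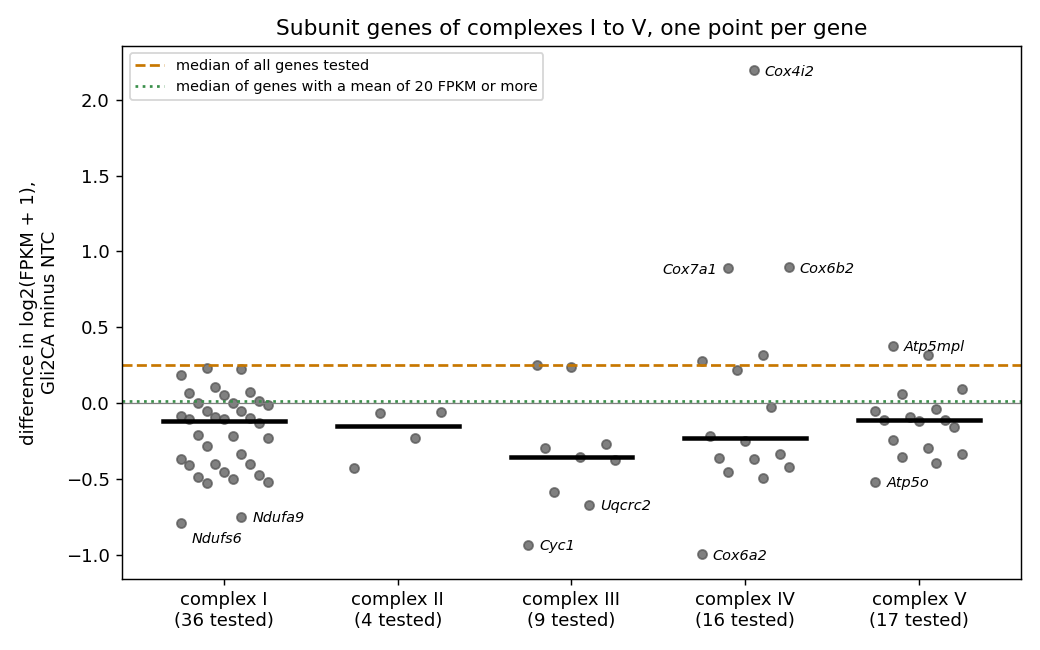
Difference in log2(FPKM + 1), Gli2CA minus NTC, for each of the 82 tested subunit genes (points) by complex. Black bars are medians per complex (-0.12, -0.15, -0.36, -0.23 and -0.11 for I to V), the dashed line is the median of all genes tested (0.25) and the dotted line that of genes with a mean of 20 FPKM or more (0.01).

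Groups that do not overlap were found in 13 of the 82 members. Of these, 10 lay lower in Gli2CA (5.79% of all genes tested did) and 3 higher (10.9% of all genes). Among genes with a mean of 20 FPKM or more the background was 9.6% lower and 10.5% higher, against 10 and 2 of the 76 members. At an unadjusted p under 0.05 by limma, 4 of the 76 were lower, against 5.8% of these genes. The 13 became 26 without Gli2CA 3 (31.7% of members, against 26.5% of all genes) and 34 without NTC 2 (41.5%, against 38.0%). They became 21 without NTC 3 (25.9%, against 26.2%). With both directions pooled, the count thus moved much as that of all genes did, but the directions differed. Without NTC 2, 28 members lay lower (12.5% of all genes) and 6 higher (25.5% of all genes). Without Gli2CA 3, 22 lay lower (10.4% of all genes) and 4 higher (16.1% of all genes). Without NTC 3, 13 lay lower and 8 higher. The members had a median standard error of 0.28 on the log2 scale, against 0.49 for all genes with a mean of 20 FPKM or more. These sets are not matched in level, as the median gene mean was 170 FPKM in members and 56.0 in those genes.

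As a share of all FPKM, the 82 genes made up 2.15%, 2.05% and 2.30% in Gli2CA 1, 2 and 3, against 2.70%, 2.21% and 2.43% in NTC 1, 2 and 3. The ranges overlap through NTC 2, which lay between the Gli2CA libraries. NTC 1 was the highest of the 6 libraries for 35 members (42.7%, against 20.7% of all genes tested) and NTC 3 for 26 (31.7%, against 19.3%). NTC 2 was the highest control library for 7 members (8.54%, against 40.8% of all genes tested), and for 40 members it lay within the range of the Gli2CA libraries (48.8%, close to the 46.0% of all genes tested).

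**Figure D2:**
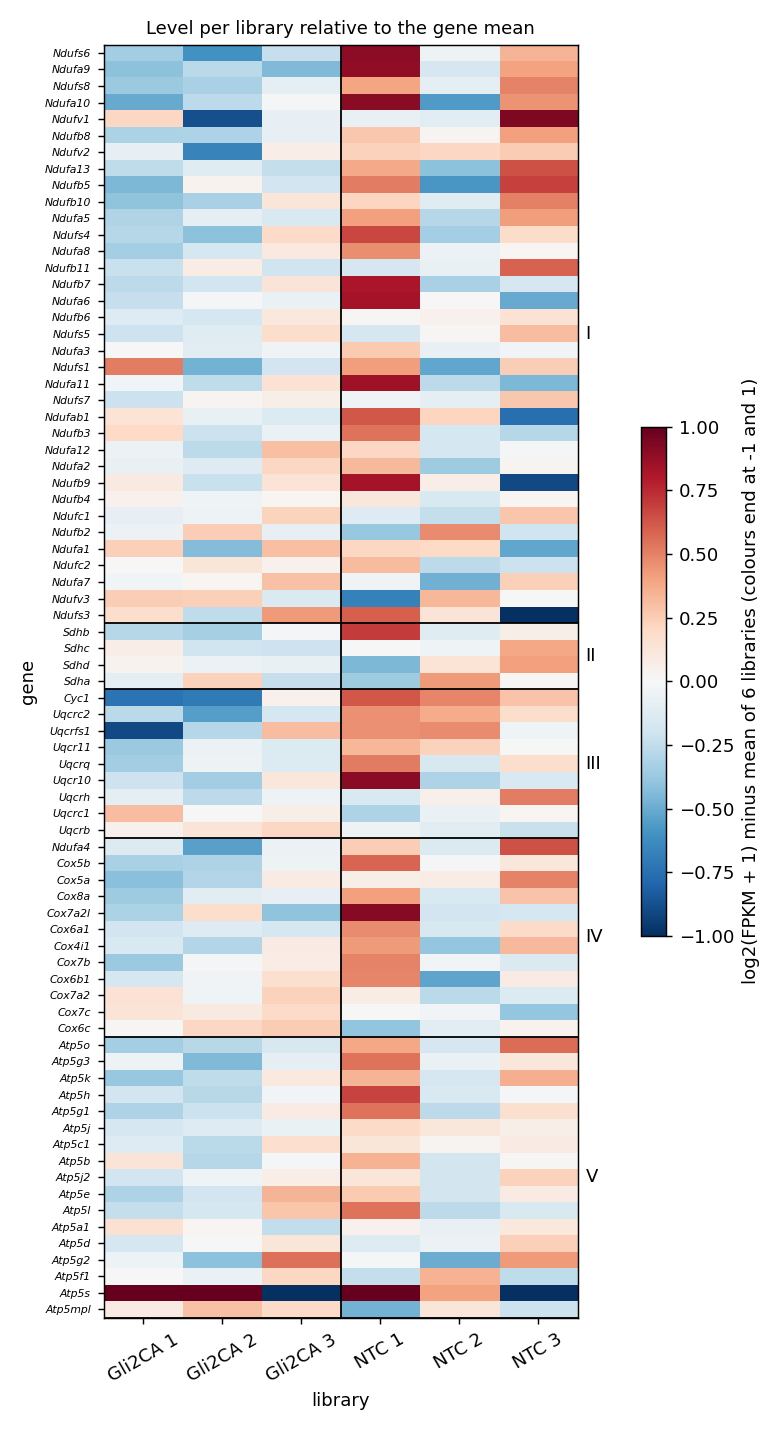
Level of 77 subunit genes in each library as log2(FPKM + 1) minus the gene's mean over 6 libraries, in rows by complex and, within a complex, by the group difference (red above and blue below the mean). The NTC 1 and NTC 3 columns hold most of the strong red cells and NTC 2 is paler; 4 restricted isoforms of complex IV and 1 complex I gene are left out.

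Of the 5 complexes, complex III had the median farthest from 0, at -0.36 over 9 members, 7 of them below 0. Of its 9 genes, 3 lay lower without overlap (5.79% of all genes tested) and 1 higher (10.9% of all genes). Averaging log2(FPKM + 1) over its 9 genes gave 7.75, 7.80 and 8.06 in Gli2CA libraries, against 8.35, 8.14 and 8.12 in NTC libraries. All 3 Gli2CA libraries lay below all 3 NTC libraries, NTC 2 included.

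Cyc1 encodes cytochrome c1, the haem subunit that passes electrons to cytochrome c. It stood at 164, 167 and 282 FPKM in Gli2CA libraries, against 422, 383 and 333 in NTC libraries. The groups did not overlap, and Gli2CA 3 came nearest to the controls. The log2 difference was -0.93 ± 0.27 (SE; limma adjusted p = 0.269), lower in all 3 Gli2CA libraries. The gene lies on chromosome 15 at 76343523 to 76346260 (GENCODE M21, GRCm38).

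Uqcrc2, a core subunit that holds the complex together, had 155, 128 and 166 FPKM in Gli2CA libraries, against 257, 244 and 212 in NTC libraries. The control libraries lay close together, with NTC 2 between the others, and none overlapped with Gli2CA. Its log2 difference was -0.67 ± 0.24 (SE; limma adjusted p = 0.377). Uqcrc1, its partner in the core, lay the other way at 649, 521 and 545 FPKM in Gli2CA libraries, against 422, 501 and 531 in NTC libraries, with overlap. The ordering of these partner genes thus differed, although neither passed the test and the difference between them was not tested.

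Uqcr11, a small subunit whose promoter stretch is shown above, had 245, 305 and 289 FPKM in Gli2CA libraries, against 400.4, 372 and 317 in NTC libraries, without overlap. Uqcrfs1, the Rieske iron-sulfur protein, varied widely within Gli2CA, at 53.4, 82.5 and 125 FPKM, against 138, 140.1 and 97.6 in NTC. Uqcrb, a small subunit near the quinone site, was the 1 member of complex III higher in all Gli2CA libraries, at 344, 366 and 387 FPKM, against 324, 312 and 287 in NTC. Against NTC 2 as the only control, the log2 difference was -0.95 for Cyc1 and -0.71 for Uqcrc2, close to the values with all 3 controls. Uqcr10, Uqcrh and Uqcrq had log2 differences of -0.29, -0.27 and -0.36 and overlapping groups.

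**Figure D3:**
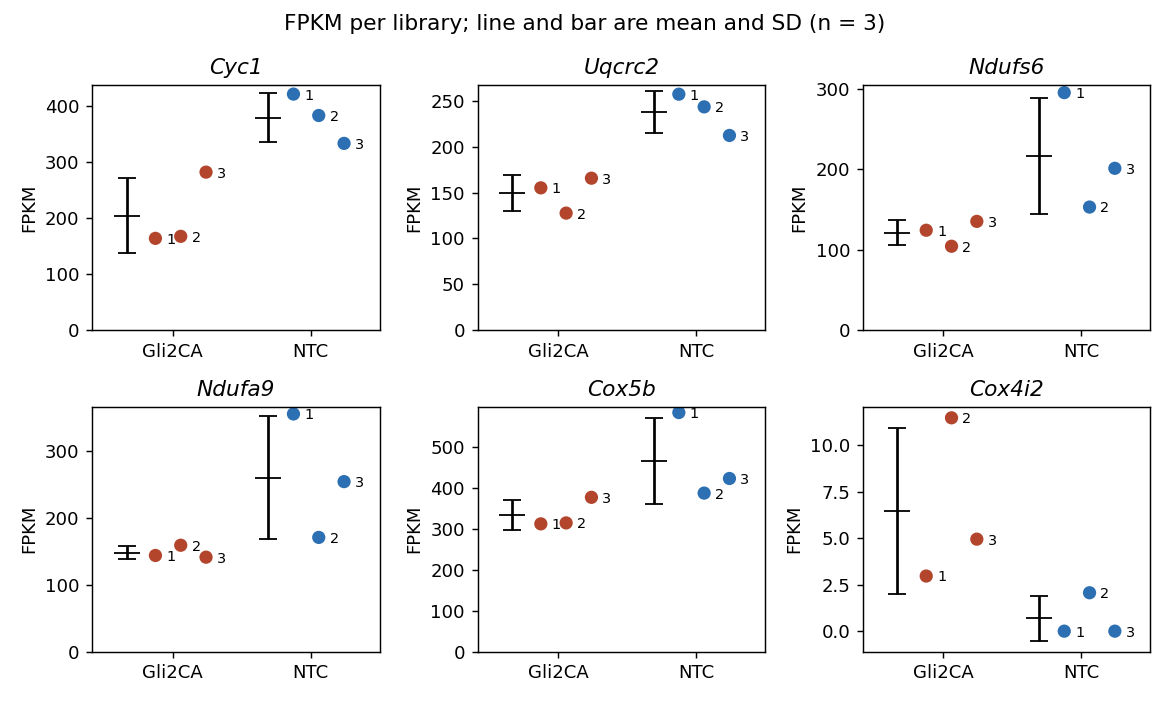
FPKM of 6 members in each library (points, numbered by library), with the group mean and SD (n = 3 each) to the left of each group. Cyc1, Uqcrc2, Ndufs6, Ndufa9 and Cox5b were lower in every Gli2CA library than in NTC 2. For Ndufs6, Ndufa9 and Cox5b NTC 2 lay just above the Gli2CA values, and Cox4i2 was at 0 in NTC 1 and NTC 3.

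Complex I had 36 tested members of 39, with a median of -0.12 and 26 of them below 0. Of the 36, 5 lay lower without overlap (5.79% of all genes tested) and 0 higher (10.9% of all genes). Mean levels of the tested members ran from 4.50 FPKM for Ndufb2 to 320.4 FPKM for Ndufa7. Ndufs6, an accessory subunit that binds zinc, had 124, 104 and 135 FPKM in Gli2CA libraries, against 296, 153 and 201 in NTC libraries. NTC 1 stood well above the rest, and NTC 2 came nearest to Gli2CA. The log2 difference was -0.79 ± 0.31 (SE; limma adjusted p = 0.422).

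Ndufa9, an accessory subunit of the arm that reaches into the matrix, had 144, 159 and 141 FPKM in Gli2CA libraries, against 355, 171 and 254 in NTC libraries. The Gli2CA libraries varied little, NTC 2 lay slightly above them, and NTC 1 and NTC 3 far above. The log2 difference was -0.75 ± 0.31 (SE; limma adjusted p = 0.443). Against NTC 2 alone the difference was -0.34 for Ndufs6 and -0.21 for Ndufa9. Ndufb8, of the membrane arm, had 201, 203 and 237 FPKM in Gli2CA libraries, against 302, 256 and 334 in NTC libraries, without overlap. Ndufa7, the complex I member with the highest mean, stood at 309.8, 320.0 and 387 FPKM in Gli2CA libraries, against 308, 226 and 373 in NTC libraries.

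The 7 core subunits of complex I encoded in the nucleus form the route of electrons through its matrix arm. Of these, 6 had a log2 difference below 0, with a median of -0.46, against -0.10 over the 29 accessory subunits tested. The mean log2(FPKM + 1) over the 7 was 7.30, 6.80 and 7.26 in Gli2CA libraries, against 7.50, 7.20 and 7.49 in NTC libraries. NTC 2 thus lay within the Gli2CA range, and Gli2CA 2 was the lowest library. Ndufs8, which holds iron-sulfur clusters, had 188, 194 and 229 FPKM in Gli2CA libraries, against 322, 227 and 345 in NTC libraries, where NTC 2 fell just below Gli2CA 3. Ndufv2, an iron-sulfur subunit, had 148, 98.4 and 164 FPKM in Gli2CA libraries, against 184, 181 and 187 in NTC libraries, so its controls were nearly equal. Ndufv1, which binds the flavin that takes electrons from NADH, overlapped, at 173, 81.1 and 141 FPKM in Gli2CA libraries, against 142, 139 and 288 in NTC libraries. Ndufs3 was the 1 core subunit with a difference above 0, at 0.23, and its NTC values spread from 55.7 to 180.5 FPKM.

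Complex II, succinate dehydrogenase, had all 4 members tested and all 4 slightly below 0, with a median of -0.15 and no gene without overlap. Sdhb, its iron-sulfur subunit, had 271, 262 and 326 FPKM in Gli2CA libraries, against 537, 304 and 343 in NTC libraries. The control range began below Gli2CA 3, and NTC 1 stood alone. Sdha, the flavoprotein that oxidises succinate, had 331, 414 and 300.1 FPKM in Gli2CA libraries, against 275, 472 and 356 in NTC libraries, and here NTC 2 was highest and NTC 1 lowest. The mean log2(FPKM + 1) over the 4 genes was 7.57, 7.55 and 7.51 in Gli2CA libraries, against 7.62, 7.74 and 7.86 in NTC libraries, so that the averages did not overlap although each gene did. The membrane anchors Sdhc and Sdhd overlapped too, with log2 differences of -0.23 and -0.07.

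Complex IV had 16 of 20 members tested, a median of -0.23 and 10 below 0. Of the 16, 1 lay lower without overlap (5.79% of all genes tested) and 2 higher (10.9% of all genes). Cox5b, a matrix-side subunit, had 313, 315 and 378 FPKM in Gli2CA libraries, against 585, 388 and 424 in NTC libraries, with a difference of -0.46 ± 0.23 in log2 (SE; limma adjusted p = 0.505). It was -0.22 against NTC 2 alone. Cox8a had 445, 528 and 537 FPKM in Gli2CA libraries, against 758, 513 and 694 in NTC libraries, and NTC 2 fell inside the Gli2CA range. Ndufa4 had 192, 145 and 204 FPKM in Gli2CA libraries, against 252, 191 and 331 in NTC libraries, again with NTC 2 inside the range. Cox6b1, the complex IV member with the highest mean, stood at 797, 871 and 1002 FPKM in Gli2CA libraries, against 1253, 622 and 947 in NTC libraries. Its log2 difference was -0.03, and it changed sign in several of the other settings. Cox7c was higher in all Gli2CA libraries, at 232, 226 and 243 FPKM, against 212, 209 and 162 in NTC.

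Several complex IV subunits exist as a widely expressed form and a form known from other tissues, such as muscle, lung or testis. Cox4i2, the form of subunit 4 known to be induced in low oxygen, stood at 2.96, 11.5 and 4.94 FPKM in Gli2CA libraries, against 0, 2.06 and 0 in NTC libraries. Every Gli2CA library lay above every NTC library, but the gene passed the minimum mean of 1 FPKM only through its Gli2CA values. Its log2 difference was 2.19 ± 0.86 (SE; limma adjusted p = 0.423), and 1.12 against NTC 2 alone. Of the summed FPKM of Cox4i2 and Cox4i1, the widespread form, Cox4i2 made up 0.438%, 1.84% and 0.620% in Gli2CA libraries, against 0%, 0.358% and 0% in NTC libraries. Cox4i1 itself had 674, 612 and 793 FPKM in Gli2CA libraries, against 1010.0, 574 and 942 in NTC libraries.

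The other restricted forms that were tested overlapped between the groups. Cox7a1, a muscle form, had 2.81, 6.53 and 2.23 FPKM in Gli2CA libraries, against 0, 0.899 and 6.69 in NTC libraries. Cox6b2, a testis form, had 6.39, 11.3 and 10.2 FPKM in Gli2CA libraries, against 0.113, 7.13 and 16.5 in NTC libraries. Cox6a2, another muscle form, had 0, 0.0554 and 0 FPKM in Gli2CA libraries, against 0, 0.158 and 6.22 in NTC libraries, and so was present mainly in NTC 3. Of their widespread partners, Cox7a2 had 309, 272 and 329 FPKM in Gli2CA libraries, against 295, 232 and 255 in NTC libraries, and Cox6a1 had 543, 568 and 550.2 in Gli2CA libraries, against 861, 556 and 710.0 in NTC libraries. Cox7a2l had 74.8, 106 and 70.4 FPKM in Gli2CA libraries, against 177, 81.9 and 82.6 in NTC libraries. The muscle form Cox8b, along with Cox7b2 and Cox8c, was listed at 0 in all 6 libraries. Cox6c2, annotated as a processed pseudogene and not tested, stayed under 1 FPKM. It had 0.149, 0.163 and 0.170 FPKM in Gli2CA libraries, against 0.691, 0.466 and 0.934 in NTC libraries. These values do not overlap but rest on 1 to 5 recovered fragments per library.

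Complex V had 17 of 18 rows tested, a median of -0.11, 13 below 0 and 1 lower without overlap (5.79% of all genes tested). The row not tested was a second gene ID of Atp5o, listed at 0 throughout. Atp5b, the catalytic beta subunit, had the highest mean of all members, at 1844, 1387 and 1672 FPKM in Gli2CA libraries, against 2149, 1491 and 1702 in NTC libraries. The groups overlapped, and its log2 difference was -0.12 ± 0.18 (SE; limma adjusted p = 0.828). All 5 subunits of the catalytic F1 head, Atp5a1, Atp5b, Atp5c1, Atp5d and Atp5e, lay between -0.15 and -0.04, and NTC 2 was within the Gli2CA range for all 5.

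Atp5o, which joins the head to the peripheral stalk, had 122, 127 and 138 FPKM in Gli2CA libraries, against 202, 137 and 228 in NTC libraries, and NTC 2 fell between Gli2CA 2 and Gli2CA 3. Its log2 difference was -0.52 ± 0.28 (SE; limma adjusted p = 0.531). Atp5j, a stalk subunit with a promoter stretch shown above, had 383, 394 and 412 FPKM in Gli2CA libraries, against 493, 465 and 448 in NTC libraries. These values lay close within each group, and the groups did not overlap at a log2 difference of only -0.24. Atp5mpl, a small membrane subunit, lay the other way at 174, 202 and 188 FPKM in Gli2CA libraries, against 118, 179 and 142 in NTC libraries.

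Atp5g1, Atp5g2 and Atp5g3 encode the same mature c subunit, the protein of the rotating ring, with different import sequences. Their summed level was 456, 372 and 504 FPKM in Gli2CA libraries, against 681, 439 and 550.3 in NTC libraries. Atp5g3 made up 69.4%, 65.0% and 60.9% of that sum in Gli2CA libraries, against 70.3%, 71.5% and 64.6% in NTC libraries, and led in every library. It had 317, 242 and 307 FPKM in Gli2CA libraries, against 479, 314 and 356 in NTC libraries, with NTC 2 just inside the Gli2CA range. The share of Atp5g2 was 14.2%, 13.5% and 19.6% in Gli2CA libraries, against 9.70%, 10.8% and 16.4% in NTC libraries, with overlap. Atp5g1 had 75.01, 80.1 and 98.4 FPKM in Gli2CA libraries, against 136, 77.7 and 104 in NTC libraries. Because such copies and their pseudogenes share sequence, reads may be split between them.

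Of the 8 members not tested, Ndufa11b, Ndufs6b, Cox7b2, Cox8b, Cox8c and the second Atp5o ID were listed at 0 in all libraries, and Ndufb4c and Cox6c2 had means of 0.483 and 0.429 FPKM. Atp5s was tested but erratic, at 15.0, 13.2 and 0 FPKM in Gli2CA libraries, against 12.8, 6.21 and 0.182 in NTC libraries. Ndufb1-ps, dropped for its name, was expressed, at 109, 105 and 139 FPKM in Gli2CA libraries, against 117, 77.7 and 74.97 in NTC libraries. A pair of partners of complex V outside the naming rule, chosen after their values were seen, were Atpif1, which inhibits the ATP synthase, at 178, 172 and 199 FPKM in Gli2CA libraries, against 331, 212 and 240.3 in NTC libraries, and Usmg5, a small subunit, at 209, 207 and 233 FPKM in Gli2CA libraries, against 192, 176 and 150.4 in NTC libraries.

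The 13 subunits encoded by mitochondrial DNA, which are built into the same complexes, lay the other way. None passed by limma. All 13 had a log2 difference above 0, as 59.7% of all genes tested did, with a median of 0.74. Of the 13, 6 were higher without overlap (10.9% of all genes) and 4 at an unadjusted p under 0.05 by limma (7.82% of all genes). Their summed level was 4686, 4551 and 4456 FPKM in Gli2CA libraries, against 2315, 4382 and 1767 in NTC libraries. NTC 2 stood just below the Gli2CA libraries, and NTC 1 and NTC 3 far below. By p-value the leading members were mt-Co1, a catalytic subunit of complex IV, with a log2 difference of 0.80 (limma adjusted p = 0.377), and mt-Nd2, a membrane subunit of complex I, with 0.91 (limma adjusted p = 0.395). Set against the nuclear members, the ratio of the sums was 0.266, 0.268 and 0.230 in Gli2CA libraries, against 0.0968, 0.244 and 0.0849 in NTC libraries, so NTC 2 fell within the Gli2CA range. Libraries were made from poly-T-selected RNA, and levels of mitochondrial transcripts depend on that step.

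**Figure D4:**
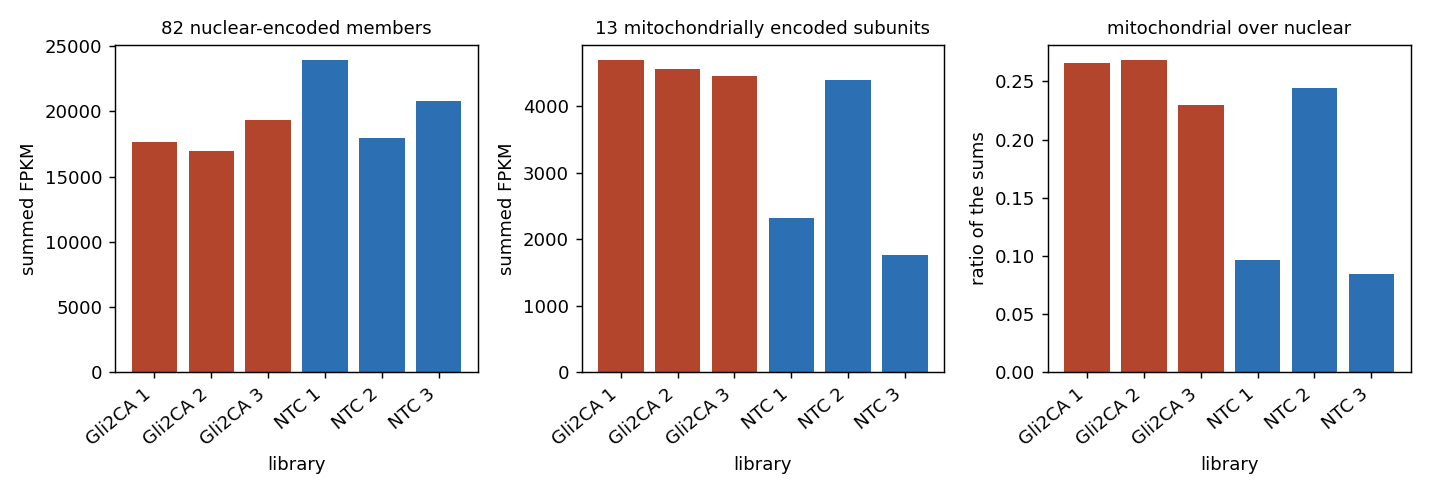
Summed FPKM of the 82 tested nuclear members (left), of the 13 mitochondrially encoded subunits (middle) and the ratio of mitochondrial to nuclear sums (right), in each library. The ratio was 0.230 to 0.268 in Gli2CA and 0.244 in NTC 2, but 0.0968 and 0.0849 in NTC 1 and NTC 3.

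Other genes of the pathway gave no call either. Among factors that assemble the complexes, log2 differences were above 0 for 8 and below 0 for 8 of complex I, 2 and 2 of complex II, 4 and 2 of complex III, 10 and 10 of complex IV and 1 and 3 of complex V. Surf1, a complex IV assembly factor, had 47.8 ± 12.6 FPKM in Gli2CA libraries, against 91.1 ± 24.1 in NTC libraries, without overlap, and Coa7, another, had 10.5 ± 9.84 against 0.0104 ± 0.0181 (SD, n = 3 each). Like Cox4i2, Coa7 passed the minimum mean of 1 FPKM only through its Gli2CA values, which varied widely. Cycs, the cytochrome c that carries electrons between complexes III and IV, stood at 204, 192 and 231 FPKM in Gli2CA libraries, against 196, 209 and 182 in NTC libraries, with overlap, unlike its partner Cyc1. Of the 11 carrier and quinone genes, 8 were above 0 and 3 below. Coq5, a methyltransferase of ubiquinone synthesis, had 42.5, 36.6 and 43.6 FPKM in Gli2CA libraries, against 3.797, 15.8 and 26.3 in NTC libraries, without overlap, and Coq9 overlapped. Tricarboxylic acid cycle genes were 11 above and 4 below 0, and the smallest p-values belonged to lower genes. Mdh2, malate dehydrogenase, had 419 ± 64.2 FPKM in Gli2CA libraries, against 664 ± 112 in NTC libraries (SD, n = 3 each), and Fh1, fumarase, ranged over 117 to 158 FPKM in Gli2CA libraries, against 174 to 423 in NTC libraries.

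Regulators of mitochondrial biogenesis were 4 above and 7 below 0, with a median of -0.45. Nrf1 had 29.4, 41.8 and 33.0 FPKM in Gli2CA libraries, against 51.7, 25.4 and 32.2 in NTC libraries. Pprc1, a coactivator related to Ppargc1a, had the smallest p of the list and was close to 0 in NTC 1 and NTC 3, with 8.17 to 19.0 FPKM in Gli2CA libraries, against 0.0588, 12.4 and 0.0477 in NTC libraries. Tfam, which helps start the transcription of mitochondrial DNA and packs it, had 16.5, 16.5 and 20.4 FPKM in Gli2CA libraries, against 58.9, 18.7 and 23.6 in NTC libraries. Ppargc1a, the coactivator best known for driving this programme in muscle, was listed at 0 in all 6 libraries. Import and carrier genes were 5 above and 8 below 0. Slc25a5, which exchanges ADP and ATP across the inner membrane, had 851 ± 74.4 FPKM in Gli2CA libraries, against 1188 ± 99.3 in NTC libraries, and the import subunit Timm50 had 107 ± 3.95 against 179.9 ± 22.1, both without overlap.

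Of the genes by which low oxygen is known to alter respiration, none passed by limma. All 6 tested had a log2 difference above 0 (59.7% of all genes), with a median of 1.70, and 3 were higher without overlap (10.9% of all genes). Bnip3, a receptor for the removal of mitochondria, had 444, 447 and 193 FPKM in Gli2CA libraries, against 48.8, 108 and 43.0 in NTC libraries (log2 difference 2.45; limma adjusted p = 0.195). Higd1a, a small protein that binds complex IV, had 198, 196 and 150.1 FPKM in Gli2CA libraries, against 96.1, 114 and 90.0 in NTC libraries (log2 difference 0.85; limma adjusted p = 0.315). Both were above NTC 2 in all 3 Gli2CA libraries. Ndufa4l2, the low-oxygen counterpart of Ndufa4, was listed at 0 in all 6 libraries.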

How the data were processed

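The deposited table gives FPKM for 54532 Ensembl IDs, with a column for each library. Its aligner, counter and genome build, and whether strand was used, are not stated in the labels. Per the labels' protocols, RNA of CD11c-sorted cells was selected on poly-T beads and primed with random hexamers. Columns were matched by sample description, and libraries are numbered by title. The gene ID table named 54409 IDs, and GENCODE M21 (GRCm38) gave coordinates and transcript lengths for 54495. Fragments were recovered as FPKM times mean transcript length, and 96.7 to 98.3% of low values came out whole within 0.05 of a read. Coordinates count from 1.

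Groups were compared with limma 3.58.1 in R 4.3.3, with a variance trend and no other covariate, on log2(FPKM + 1). P-values were two-sided and adjusted after Benjamini and Hochberg across 12266 genes averaging 1 FPKM or more. The fit was also run on simulated data, with results not given here. The values of 1 complex I member are not reported here, although it is included in counts and medians. Gene lists were described by counts and medians, with no test. The genes named were, per complex, up to 4 with the smallest p and the 1 with the highest mean, and paralogue sets; for other lists, the 2 with the smallest p where values are given. Other named genes, such as Uqcrb, Cox7c, Ndufb2, Ndufs3, Ndufv1, Ndufv2, Uqcr10, Uqcrh, Uqcrq, Cycs and Nrf1, were chosen after their values were seen. The members and lists were chosen with earlier results of these data known. Log2 differences understate the change of low genes. Summaries and plots came from Python 3.11.15 (pandas 2.3.3; matplotlib 3.10.9).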

Additional observations from a re-analysis of the deposited data

How the results depend on the processing

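In 17 other settings no member passed an adjusted p of 0.05, including a pseudocount of 0.1, no filter, minimum means of 5 and of 20 FPKM, quantile normalization, scaling by median of ratios or to one sum, untrended variances and each left-out library. The minimum mean of 20 and voom on recovered fragments were chosen after seeing the data, as was counting Ndufa4 in complex I, which left both medians within the replicate spread; voom with TMM scaling was not run. With a replicate block by title number the members' median stayed at -0.18 and 2 members were lower at an unadjusted p under 0.05 by limma. Libraries with the same title number did not deviate together (r of -0.04 to -0.0018). With so few libraries this cannot exclude a shared batch or pairing. In the sample descriptions the NTC libraries are numbered 1, 3 and 4, unlike in the titles. Scaling moved the median of all genes from 0.25 to -0.03 (quantile normalization), where that of members was -0.15.

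Without both NTC 1 and NTC 3, medians were -0.014 for all members, -0.18 for complex III, 0.16 for complex IV and 0.038 for complex V, and 41 members did not overlap (50.6%, against 54.0% of all genes); Cox4i1 (0.26), Cox6b1 (0.51), Cox7a2l (0.0082), Atp5b (0.12) and Atp5g1 (0.11) changed sign. The lone control is assumed to vary like the other group. Cox6b1 also changed sign with one sum per library (0.0074) and voom (0.016).

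Leaving out 1 library, medians ran from -0.27 to -0.10 for all members, -0.26 to -0.095 for complex I, -0.27 to -0.078 for complex II, -0.50 to -0.28 for complex III, -0.39 to -0.058 for complex IV and -0.25 to -0.073 for complex V, members without overlap from 17 to 34, and Sdhc from -0.32 to -0.093. Log2 differences that changed sign ran from -0.30 to 0.21 for Cox6b1, -0.25 to 0.14 for Sdha, -0.30 to 0.12 for Sdhd, -0.20 to 0.29 for Atp5g2, -0.25 to 1.74 for Cox6b2, -0.55 to 0.0026 for Cox7a2l, -0.24 to 0.027 for Atp5b and -0.0059 to 0.35 for Ndufa7. The cause was not tested.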
